A study of Homo sapiens with 5 samples.

Results

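Introns of more than 2000 bp were described in the human colorectal cancer line DLD-1 after loss of the splicing factors WBP11 or SNW1. The members were all introns longer than 2000 bp that the intron retention program IRFinder marked clean in its name field, and whose coverage depth plus spliced reads came to at least 10 in both libraries of a comparison. They numbered 2500 of 16629 listed introns after WBP11 siRNA (2051 genes), 4213 of 24077 after SNW1 siRNA (3191 genes) and 4456 of 22471 after WBP11 auxin treatment (3116 genes). A further 54, 79 and 102 long clean introns were listed but too shallow. Over the 3 tables there were 7190 different members among 34560 listed introns.

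The 5 groups held 1 library each, made from polyA RNA of cells at a passage below 10. DLD-1 LacZeo cells received 100 nM WBP11 siRNA for 72 h or 100 nM SNW1 siRNA for 72 h, and both libraries were set against the same DLD-1 LacZeo control, whose treatment label is none. DLD-1 LacZeo osTIR1 cells with 500 µM auxin for 48 h formed the WBP11 auxin group and its own auxin control. Per the series' design text, the depletion removed a WBP11 transgene carrying an auxin-inducible degron tag in cells whose own WBP11 gene was knocked out. The labels give both auxin libraries the same genotype and do not say which of these alleles the auxin control carries. The labels record no treatment for the siRNA control while the table headers call it an RNAi control, so whether it received a control siRNA is not known, and an effect of transfection was not tested. With 1 library per group there was no replicate spread and no test, and every interval given here covers counting error only, and that approximately.

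Splicing removes introns from pre-mRNA. In human genes long introns usually separate short exons, and their splice sites are thought to be paired first across the exon (exon definition), whereas very short introns can be recognised across the intron itself. SNW1, also called SKIP, is a subunit of the activated spliceosome, and WBP11 is a spliceosome-associated protein that binds WW-domain proteins such as PQBP1. Known retained introns in human cells are mostly short and rich in G and C, so long introns are the less usual case.

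The unit throughout is the retention ratio as deposited, written in percent. It is the depth of reads over the measured bases of the intron divided by that depth plus the reads spliced across it, and a difference is the depleted library minus its control in percentage points. Where the depth was below 1, the deposited ratio used the share of intron bases with any coverage in place of the depth. Depths below 1 were found in 25.4% of members in the WBP11 siRNA library and 19.5% in the control of that table. They were found in 4.87% in the SNW1 siRNA library and 45.1% in its control, and in 3.93% in the WBP11 auxin library and 51.0% in the auxin control. Every listed intron reached a retention of 1% in at least 1 of its 2 libraries, so a member could enter a table through 1 library alone. Every listed intron was also free of IRFinder warnings in at least 1 library. Warnings were found in 33.6% of members after WBP11 siRNA and 32.0% in the control of that table. The shares were 40.6% after SNW1 siRNA and 25.2% in its control, and 52.6% after WBP11 auxin and 17.4% in the auxin control.

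The members' own ends are shown for the introns that the results below turn on. The sequences are GENCODE release 29 transcripts on GRCh38, read on the gene's strand. Where an annotated transcript runs through the splice site, the 5′ splice site is given with 9 exon bases and 21 intron bases, and the capitals mark the last 3 exon bases and the first 6 intron bases.
OGT 5′ site: gaagccAAGGTAGGTgtttgatagaacaca
ARGLU1 5′ site: gctagaGAGGTAACGctcggtcgtttggaa
NDUFA10 5′ site: aaaggaGATGTAATGcagttttcaatcaaa
RNF43 5′ site: cccagcCTGGTGAGTtttcagagggaagtg
TUBG2 5′ site: agtttgGAGGTGAAGttatggagtggggga
STIM1 5′ site: atctcaGAGGTTGGTagagggcgaggctgg
MDFI 5′ site: cacaggAAGGTAAGCacccatcccatctct
CMTM4 5′ site: cctggaCACGTGAGGacctgcctggatcct
At the 3′ end, 24 intron bases and 6 exon bases are given, and the capitals mark the last 3 intron bases and the first exon base.
OGT 3′ site: cttctttcattaacccctcctAAGGcatgt
ARGLU1 3′ site: atcttaacatatcctccccttTAGGaggaa
PIM2 3′ site: ttcccaccccacctgtgccccCAGTcagac
SH3RF2 3′ site: aaaaaaaaaattttccaaaacCAGAaagac
PUS7 3′ site: aatgttaattcttttgctttcAAGAtccaa
For introns that no transcript runs through, the spliced product is given, 15 bases from each exon, with the last 3 bases of the upstream exon and the first base of the downstream exon in capitals.
TRAPPC8 spliced junction: cagagatatctgCAAGaatatggtgttggc
FCHO2 spliced junction: agcagatcccacCAAGtgtattgtgaagat
XRN1 spliced junction: atacagaaccagCATAaatattctataaag
MPND spliced junction: gccatcgaagagGAGAtctaccagagcctg
TMEM129 spliced junction: cgctgctgccgcTCGGctactatgtgggca

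The tables hold spliced reads of the listed introns only, from 2987572 to 5527186 per library. Members took 356565 of the spliced reads after WBP11 siRNA and 356468 in its control, 534287 after SNW1 siRNA and 666824 in its control, and 658041 after WBP11 auxin and 505921 in its control. No intron of WBP11 or SNW1 was a member. Over their listed shorter introns, spliced reads of WBP11 were 20 after WBP11 siRNA and 312 in the control, and 103 after WBP11 auxin and 235 in the auxin control. Spliced reads of SNW1 were 31 after SNW1 siRNA and 401 in the control. Of 10 markers of a colorectal epithelial line 4 to 5 were listed in each table, among them CDH1, KRT18 and KRT19, while 0 of 6 fibroblast markers were listed. Spliced reads of the listed epithelial markers summed to 39171 after WBP11 siRNA and 47906 in the control, to 83896 after SNW1 siRNA and 284222 in the control, and to 18063 after WBP11 auxin and 28308 in the auxin control. The part of these shifts in the results was not tested. Of 6 leukocyte markers only CD68 was listed, with 23 spliced reads after WBP11 siRNA and 39 in the control, and at another intron with 2 after SNW1 siRNA and 29 in the control.

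After WBP11 siRNA, long introns were about as often lower as higher than in the control. Of 2500 members 32 (1.28%) were at least 10 points higher, against 9.07% of all 16068 introns tested, and 35 (1.40%) were at least 10 points lower, against 1.69% of all. The median retention of members was 1.78% in the WBP11 siRNA library and 1.99% in the control. The median difference was -0.40 points, against 0.76 points for all introns tested, and 44.2% of members had a higher value after WBP11 siRNA, against 59.6% of all. The interval of the difference left out 0 for 17 of the 32 higher and 17 of the 35 lower members. Among the 1218 members without an annotated exon of their own gene inside, the median difference was 0.00131 points, against -0.60 points among the 1282 with such an exon. At a depth minimum of 30 in place of 10 the shares higher and lower were both 0.796%. Centred on the median of all introns tested, 25 members were higher and 44 lower by at least 10 points.

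After SNW1 siRNA, most of the listed long introns had a higher retention value, by a small amount. Every listed intron reached 1% in at least 1 library, and depth below 1 was more frequent in the control (45.1% of members) than after SNW1 siRNA (4.87%). Members could therefore enter through the depleted library alone, and the share with a higher value is partly set by this rule. Of 4213 members 166 (3.94%) were at least 10 points higher, against 16.6% of all 23366 introns tested, and 11 (0.261%) were at least 10 points lower, against 0.359% of all. The median retention of members was 2.82% in the SNW1 siRNA library and 1.05% in the control. The median difference was 1.52 points, against 2.63 points for all introns tested, and 87.5% of members had a higher value, against 91.3% of all. The interval of the difference left out 0 for 102 of the 166 higher and 4 of the 11 lower members. At a depth minimum of 30 the share higher was 2.52%. Centred on the median of all introns tested, 96 members were higher and 23 lower.

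After WBP11 auxin, the median listed long intron was higher by nearly as much as the median of all introns tested, but few differences were large. The same listing rule applied here, with depth below 1 for 3.93% of members after WBP11 auxin and 51.0% in the auxin control. Of 4456 members 186 (4.17%) were at least 10 points higher, against 13.8% of all 21828 introns tested, and 11 (0.247%) were at least 10 points lower, against 1.37% of all. The median retention of members was 2.69% in the WBP11 auxin library and 1.24% in the auxin control. The median difference was 1.32 points, against 1.45 points for all introns tested, and 81.4% of members had a higher value, against 72.8% of all. The interval of the difference left out 0 for 113 of the 186 higher and 4 of the 11 lower members.

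**Figure D1:**
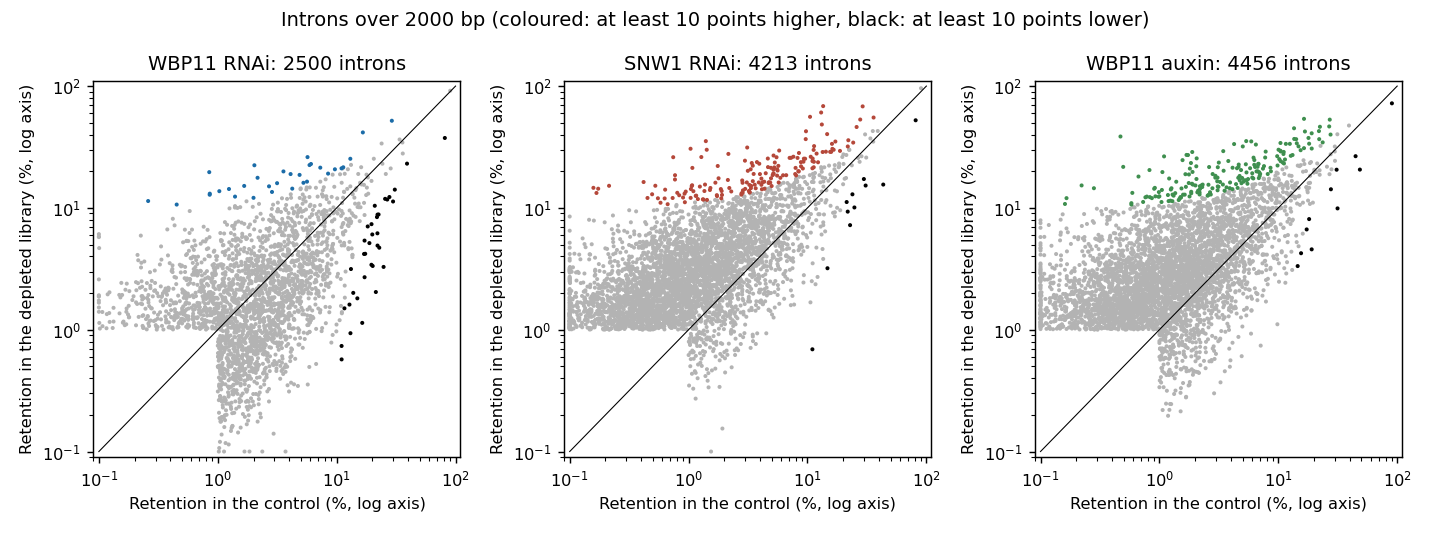
Each point is 1 intron over 2000 bp, with its retention in the control on the x axis and in the depleted library on the y axis, in percent on log axes, values under 0.1% drawn at 0.1%. Coloured points were at least 10 points higher (32, 166 and 186 introns) and black points at least 10 points lower (35, 11 and 11). The empty lower left corner is the listing rule of 1% in at least 1 library.

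The share of introns at least 10 points higher was lowest among long introns. Along the length classes it went down at almost every step, with the exceptions of introns over 150 and up to 500 bp after SNW1 siRNA and of those over 10000 bp after WBP11 siRNA. After WBP11 siRNA, 23.9% of introns of up to 80 bp were higher, 11.96% of those over 150 and up to 500 bp, 3.64% of those over 1000 and up to 2000 bp, 1.44% of those over 2000 and up to 5000 bp and 0.649% of those over 5000 and up to 10000 bp. After SNW1 siRNA the same classes gave 43.6%, 22.9%, 8.62%, 4.45% and 2.92%, and after WBP11 auxin 64.5%, 12.2%, 6.89%, 4.84% and 2.45%. Above 10000 bp, 1 of 94 introns was higher after WBP11 siRNA, 0 of 197 after SNW1 siRNA and 6 of 256 after WBP11 auxin. The SNW1 count of 0 allows a share of up to 1.52%. The median difference over listed introns, which the listing rule partly sets, did not follow length in the same way. After WBP11 auxin it was 18.4 points up to 80 bp, 0.85 points over 500 and up to 1000 bp, and 1.26, 1.40 and 1.52 points in the 3 classes above 2000 bp. Few long introns are listed at all: listed introns over 2000 and up to 5000 bp were 3.84%, 6.30% and 6.39% of the annotated introns of protein-coding transcripts in that class in the WBP11 siRNA, SNW1 siRNA and WBP11 auxin tables, and 27.9%, 31.7% and 33.5% of those up to 80 bp.

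**Figure D2:**
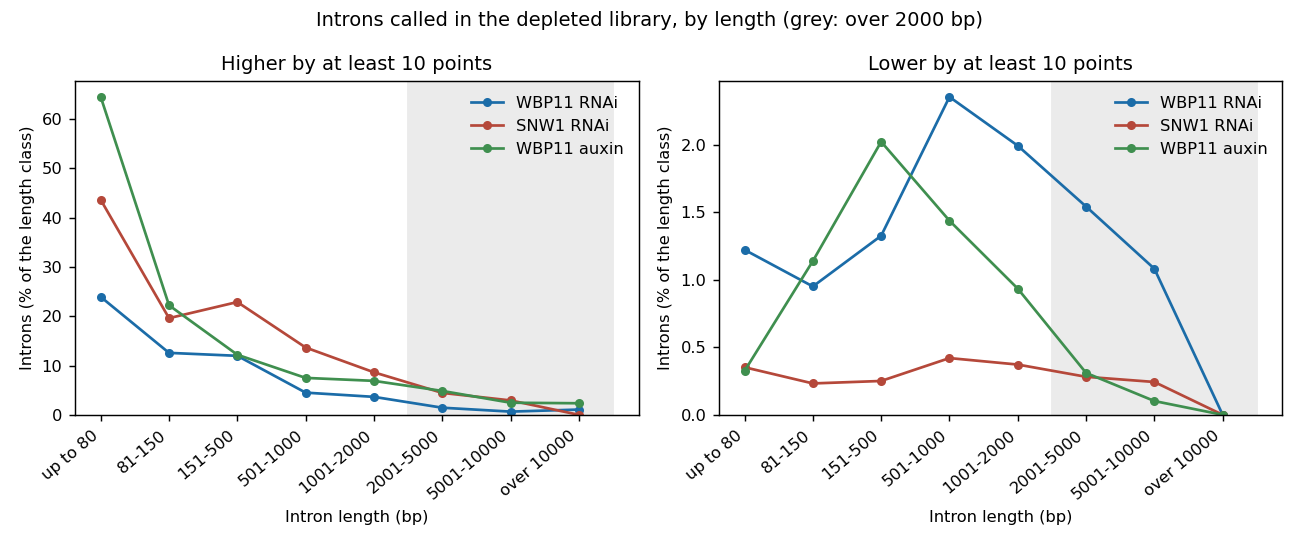
The x axis gives intron length classes in bp and the y axis the percentage of the introns tested in each class that were at least 10 points higher (left) or lower (right) in the depleted library, with 1 line per comparison and the classes over 2000 bp on grey. The share higher falls to 1.44%, 4.45% and 4.84% in the class over 2000 and up to 5000 bp after WBP11 siRNA, SNW1 siRNA and WBP11 auxin.

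**Figure D3:**
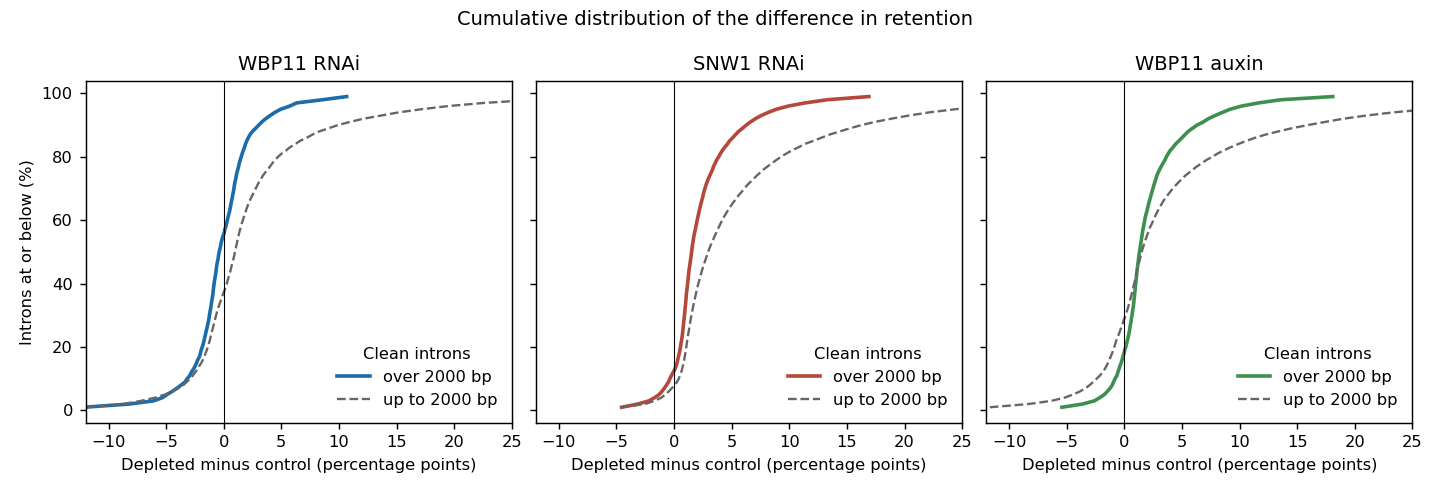
The y axis gives the percentage of introns at or below the difference on the x axis, in percentage points, for clean introns over 2000 bp (solid) and up to 2000 bp (dashed). The solid line crosses 50% at -0.40, 1.52 and 1.32 points after WBP11 siRNA, SNW1 siRNA and WBP11 auxin.

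Long and short introns of the same gene were also compared. They were matched by gene and not by transcript, so they can belong to transcripts of different levels. Both kinds had passed the listing rule of 1% in at least 1 library. In genes with a member and an intron of up to 1000 bp in the same table, the median difference was -0.28 points for the long and 1.01 points for the short introns after WBP11 siRNA (1023 genes), 1.60 and 2.52 points after SNW1 siRNA (1731 genes), and 1.36 and 1.45 points after WBP11 auxin (1685 genes). The gene's long introns lay below its short ones in 64.1% of genes after WBP11 siRNA, 63.3% after SNW1 siRNA and 50.3% after WBP11 auxin. A long intron was higher by at least 10 points in 21, 99 and 107 of these genes and a short intron in 169, 475 and 440, but there were 1297, 2389 and 2521 long introns against 2610, 5106 and 4445 short ones, so a gene had more short introns that could be called. All genes of a comparison come from the same libraries, so these genes are not replicates of a condition.

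In each comparison, the higher introns had a higher median change in depth and a lower one in spliced reads than all members. The 32 introns higher after WBP11 siRNA had a median log2 change of 1.29 in depth and -0.65 in spliced reads, and the 166 higher after SNW1 siRNA of 1.47 and -0.85. The 186 higher after WBP11 auxin had a median log2 change of 2.27 in depth and -0.02 in spliced reads. These are raw values of each library, not scaled for library size, and over all members the medians were -0.29 and -0.03, 0.98 and -0.26, and 1.38 and 0.44 in the same order. Depth was higher in 30 of 32, 157 of 166 and 184 of 186 of these introns. Over all members it was higher in 1011 of 2500, 3459 of 4213 and 3880 of 4456. Depth and spliced reads are both part of the ratio that the call uses. The medians and counts among called introns are therefore partly set by the call.

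The introns that were higher after WBP11 siRNA lay in genes of several kinds. RNF43 encodes a membrane ubiquitin ligase that removes Wnt receptors. Its last intron (8 of 8, 2481 bp, chromosome 17, 58354987 to 58357467, coding region) had 41.6% retention in the WBP11 siRNA library and 16.6% in the control, 25.03 points higher (95% interval 16.9 to 32.9), with a depth of 89.2 against 45.0 and 118 against 226 spliced reads. An annotated transcript ends inside this intron, downstream of the 5′ site shown above. The same intron was 13.4 points above the shared control after SNW1 siRNA (4.84 to 22.4), and had 23.3% after WBP11 auxin while the auxin control had 18.5%.

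TUBG2, a gamma-tubulin gene, had 51.9% in the WBP11 siRNA library and 29.1% in the control at intron 4 of 10 (2265 bp, chromosome 17, 42660708 to 42662972), 22.8 points higher (5.97 to 38.4), and here too an annotated transcript ends inside the intron. It had 68.1% after SNW1 siRNA, 39.0 points above the shared control (23.3 to 52.0). Its spliced reads numbered 25 after WBP11 siRNA, 22 after SNW1 siRNA and 60 in the control. Of these, 14, 14 and 48 joined exactly the ends of this intron. Depth was 27.0 after WBP11 siRNA, 47.0 after SNW1 siRNA and 24.6 in the control.

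XRN1, the main cytoplasmic exonuclease that degrades RNA 5′ to 3′, had 22.4% in the WBP11 siRNA library and 2.03% in the control at intron 23 of 41 (3487 bp, chromosome 3, 142376595 to 142380081), 20.4 points higher (1.86 to 39.0). The same intron had 25.5% after WBP11 auxin and 2.06% in the auxin control (difference 23.4 points, -0.02 to 36.3), and 4.13% after SNW1 siRNA. No annotated exon of XRN1 lies inside it. Its depths were low, 6.06 after WBP11 siRNA against 0.547 in the control, and after WBP11 auxin they were 14.4, with 0.0381 in the auxin control.

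STIM1, the calcium sensor of the endoplasmic reticulum, had 19.9% after WBP11 siRNA and 3.57% in the control at its last intron (11 of 11), 16.4 points higher (8.64 to 25.1). FERMT1, which encodes the integrin activator kindlin-1, had 22.5% and 5.91% (6.35 to 29.1 for the difference), and PPP1R12C, a regulatory subunit of protein phosphatase 1, had 26.1% and 5.69% (9.07 to 34.5). ABCA2, a lipid transporter gene, had 19.7% and 0.848% at the first of 48 introns (4.47 to 44.0). Of the 10 largest differences 2 had intervals that held 0. These were in CUL9, a cullin gene, with 22.9% after WBP11 siRNA and 6.08% in the control on 9 and 37 spliced reads, and SIM2, a transcription factor gene, with 19.0% and 4.097%.

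The 35 lower introns after WBP11 siRNA had a median of 4.91% in the WBP11 siRNA library and 19.9% in the control, and a call of at least 10 points lower needs a control value of at least 10%. OGT, the enzyme that attaches O-linked N-acetylglucosamine to proteins, led them. Its intron 4 of 21 (3271 bp, chromosome X, 71544636 to 71547906) is known as a detained intron, kept in nuclear transcripts and spliced according to the cell's O-linked N-acetylglucosamine level. It had 37.5% in the WBP11 siRNA library and 81.3% in the control, 43.8 points lower (interval -52.2 to -34.3), on a depth of 54.6 against 251 and 89 against 54 spliced reads. After SNW1 siRNA it had 52.4%, a difference of -28.9 points (-37.9 to -19.6). Both differences use the same control library. A transcript that keeps this intron whole is annotated, from which both splice sites shown above were read, and its 3′ site ends in AAG in place of the usual CAG or TAG.

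MDFI, a gene for an inhibitor of MyoD family factors, had 3.28% after WBP11 siRNA, 10.1% after SNW1 siRNA and 24.8% in the control at its last intron, a difference of -21.5 points after WBP11 siRNA (-32.3 to -8.67). NUDT14, a UDP-sugar diphosphatase gene, had 11.3%, 17.3% and 29.8% in the same order. ARGLU1, a modulator of splicing, had a member at intron 2 (of 3, 2300 bp, chromosome 13, 106557132 to 106559431). It had 14.1% after WBP11 siRNA, 15.3% after SNW1 siRNA and 30.8% in the control, with intervals of -23.1 to -9.99 and -22.0 to -8.87. After WBP11 auxin the ARGLU1 intron had 32.3% and the auxin control 22.7%, a difference of 9.64 points in the other direction (2.59 to 16.7). Depth in ARGLU1 was 37.5 after WBP11 siRNA, 42.9 after SNW1 siRNA and 99.0 in their control, and 93.9 after WBP11 auxin and 75.9 in the auxin control. DYNC2I1, an intermediate chain of the ciliary dynein, had 2.04% after WBP11 siRNA and 21.4% in the control on 23 and 14 spliced reads, with an interval that held 0.

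**Figure D4:**
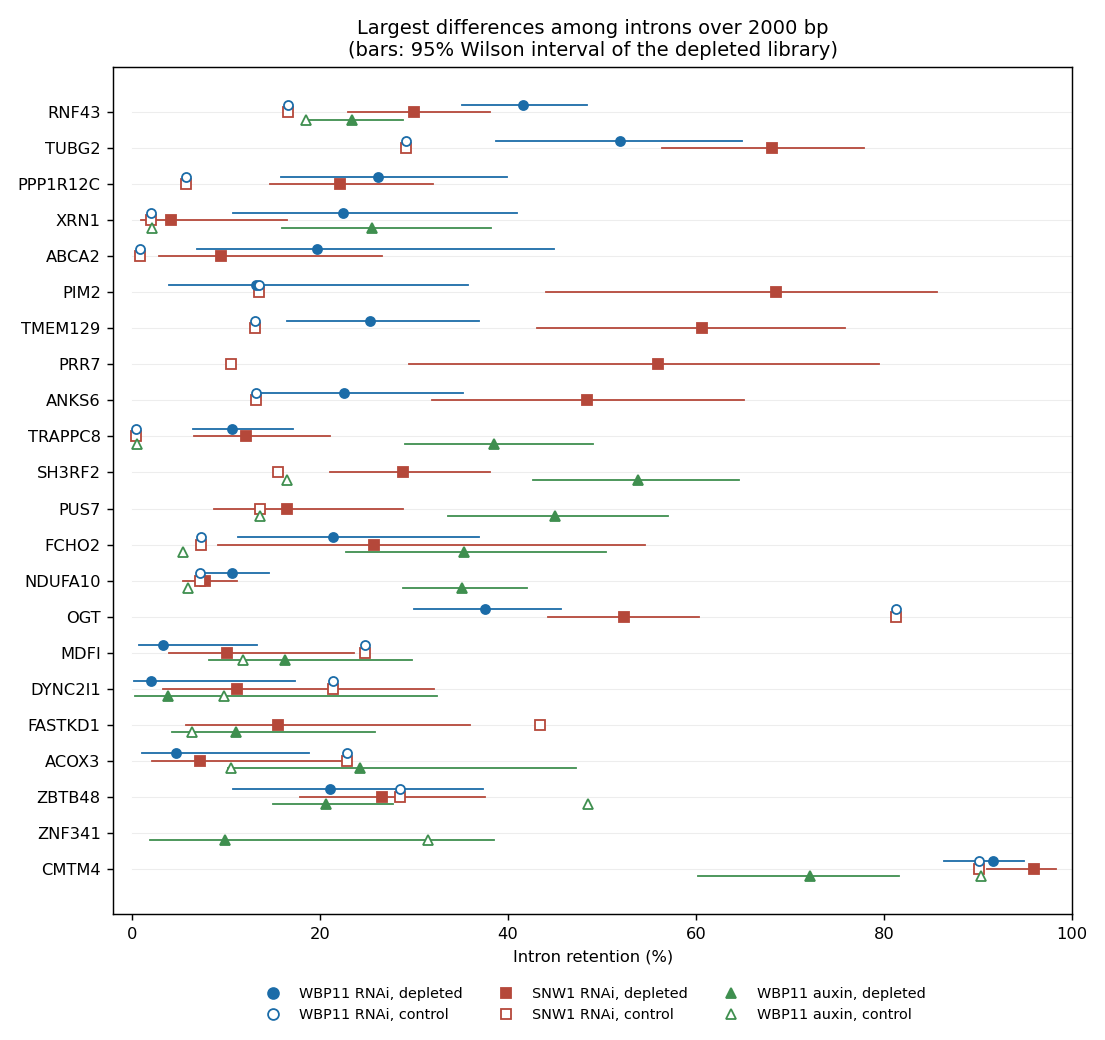
The x axis gives intron retention in percent, with filled symbols for the depleted library and open symbols for its control, for the introns over 2000 bp with the largest differences, and bars for the 95% Wilson interval of the depleted library (counting error only). OGT stands apart with 37.5% after WBP11 siRNA and 52.4% after SNW1 siRNA against 81.3% in the control, and TRAPPC8 with 38.6% after WBP11 auxin, where the auxin control had 0.470%.

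The largest difference after SNW1 siRNA was in PIM2, a serine/threonine kinase gene, at intron 3 of 5 (2388 bp, chromosome X, 48915393 to 48917780). It had 68.5% in the SNW1 siRNA library and 13.5% in the control, 54.9 points higher (24.2 to 74.2), but on only 5 spliced reads against 21, and it had 13.1% after WBP11 siRNA. TMEM129, an endoplasmic reticulum ubiquitin ligase gene, had 60.7% after SNW1 siRNA, 25.3% after WBP11 siRNA and 13.0% in the control at its first intron (2006 bp), with 12, 50 and 181 spliced reads. In the same order its depth was 18.5, 16.9 and 27.1, so the higher ratios came with lower depth and fewer spliced reads. IRFinder gave this intron a minor isoform warning in both siRNA libraries. The interval for TMEM129 after SNW1 siRNA was 29.3 to 63.3 points. PRR7 had 55.9% after SNW1 siRNA and 10.5% in the control at an intron of its 5′ UTR of 7868 bp, on 5 and 35 spliced reads. Annotated transcripts start inside the PIM2 and PRR7 introns, and an annotated exon of TMEM129 lies inside its intron.

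ANKS6, a protein of the cilium, had 48.4% after SNW1 siRNA and 13.2% in the control at its first intron (5526 bp), 35.2 points higher (17.0 to 52.7), with a depth of 14.99 against 14.76 and 16 against 92 spliced reads. An annotated transcript starts inside the ANKS6 intron. ZSWIM8, the substrate receptor of a ubiquitin ligase that acts in target-directed microRNA decay, had 31.3% and 3.11% at the first of 25 introns (2583 bp), 28.2 points higher (19.5 to 36.9), with a depth of 39.6 against 4.02 and 87 against 125 spliced reads. PRKCE, MAPK11 and NT5DC3 had depths of 0.136, 0.221 and 0.223 in the control. PRKCE, protein kinase C epsilon, had 35.3% after SNW1 siRNA and 1.40% in the control. MAPK11, the p38 beta kinase, had 30.6% and 1.04%. NT5DC3 had 30.01% and 1.42%. After WBP11 auxin the same introns had 18.1% in PRKCE, 29.2% in MAPK11 and 23.4% in NT5DC3, against 0.667%, 3.44% and 1.84% in the auxin control. The WBP11 auxin intervals held 0 for PRKCE (-2.91 to 33.4) and MAPK11 (-5.32 to 48.9) but not for NT5DC3 (4.87 to 34.3). LIMD1, a LIM-domain gene of the Hippo pathway, had 42.6% after SNW1 siRNA and 9.71% in the control at its last intron.

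Of the 11 introns lower after SNW1 siRNA, the intervals of 4 left out 0, those of OGT, ARGLU1, NUDT14 and C1orf52. FASTKD1, a mitochondrial RNA-binding protein gene, had 15.5% after SNW1 siRNA and 43.4% in the control on 18 and 10 spliced reads, with an interval that held 0 (-52.1 to 0.56). ACOX3, a peroxisomal acyl-CoA oxidase gene, had 7.22% after SNW1 siRNA, 4.71% after WBP11 siRNA and 22.8% in the shared control.

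The introns higher after SNW1 siRNA were often the first of their transcript. First introns made up 51 of these 166 (30.7%), against 15.5% of the 4213 members. By position, 7.83% of the 651 first introns and 3.23% of the 3562 others were higher, and the median difference was 2.35 and 1.42 points. After WBP11 siRNA, 1.29% of 310 first introns and 1.28% of 2190 others were higher, and after WBP11 auxin 5.20% of 442 and 4.06% of 4014. In the 5′ UTR, 22 of 274 members (8.03%) were higher after SNW1 siRNA, 0 of 132 after WBP11 siRNA and 7 of 170 (4.12%) after WBP11 auxin. First introns had a median retention of 3.26% after SNW1 siRNA and 0.791% in the control, and other introns of 2.73% and 1.10%. Last introns after WBP11 siRNA had a median difference of -0.98 points, with a median retention of 1.49% in the WBP11 siRNA library and 2.50% in the control (358 introns).

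After WBP11 auxin the largest difference was in TRAPPC8, a subunit of the TRAPP III vesicle tethering complex. Its intron 10 of 28 (3033 bp, chromosome 18, 31897892 to 31900924) had 38.6% in the WBP11 auxin library and 0.470% in the auxin control, 38.1 points higher (27.6 to 48.5), on a depth of 33.9 against 0.314 and 54 against 90 spliced reads. It had 10.7% after WBP11 siRNA, 12.1% after SNW1 siRNA and 0.451% in the shared control, differences of 10.2 (2.63 to 16.7) and 11.6 points (3.28 to 20.6). No exon of TRAPPC8 is annotated inside this intron. Its control depths were 0 in the shared control and 0.314 in the auxin control, so the control ratios come from the covered share of the intron.

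SH3RF2, a ubiquitin ligase family gene, had 53.8% after WBP11 auxin and 16.5% in the auxin control (6735 bp, chromosome 5, 146049246 to 146055980), 37.4 points higher (22.5 to 50.1), and 28.8% after SNW1 siRNA against 15.5% in its control. PUS7, a pseudouridine synthase, had 45.0% and 13.6% at an intron of 7166 bp (17.5 to 44.6 for the difference). Of its 36 spliced reads after WBP11 auxin, 18 joined exactly the ends of this intron, and 86 of 88 did in the auxin control. Annotated transcripts start inside both introns, upstream of the 3′ sites shown above. NDUFA10, a subunit of respiratory complex I, had 35.1% after WBP11 auxin and 5.93% in the auxin control at intron 5 of 9, 29.2 points higher (22.3 to 36.3), on 129 against 364 spliced reads, the deepest of the 10 by spliced reads. It had 10.6% after WBP11 siRNA, 7.79% after SNW1 siRNA and 7.27% in their control.

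FCHO2, which starts clathrin-coated pits, had 35.3% after WBP11 auxin and 5.37% in the auxin control (10.6 to 45.6 for the difference), and 21.4% after WBP11 siRNA, 25.8% after SNW1 siRNA and 7.28% in their control. Both siRNA intervals of FCHO2 held 0 (-3.01 to 30.4 and -3.13 to 47.7). TRRAP, the scaffold of histone acetyltransferase complexes, had 33.4% and 4.25%. OFD1, a centriole and cilium protein, had 28.8% and 1.89% at intron 9 of 23 (8.88 to 41.1). MTBP, which acts in the firing of replication origins, had 33.1% and 6.48%. NR4A1, an immediate-early nuclear receptor gene, had 31.9% and 5.03% at its 5′ UTR intron (12.4 to 40.4). C1RL, a complement protease-like gene, had 53.0% and 27.1%, and its interval held 0.

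The introns lower after WBP11 auxin were few. ZBTB48, a telomere-binding zinc finger protein gene, had 20.6% in the WBP11 auxin library and 48.6% in the auxin control (-44.6 to -10.98 for the difference), with a depth of 31.4 against 17.9 and 121 against 18 spliced reads, so the lower ratio came with more intron reads and many more spliced reads. DDIT3, the stress transcription factor CHOP, had 4.57% and 19.1% at its first intron, which holds the microRNA gene MIR616, on 393 against 35 spliced reads. CMTM4, a membrane protein gene, had 72.2% and 90.3% at its last intron (4703 bp), and 91.6% after WBP11 siRNA, 96.0% after SNW1 siRNA and 90.2% in their control. It had the highest retention of any member in each control library, and an annotated transcript ends inside the intron. PKN3, a protein kinase N gene, had 26.6% and 44.7%, and ZNF341, a zinc finger transcription factor gene, 9.91% and 31.5%, both with intervals that held 0.

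Both ways of losing WBP11 could be compared without a shared library. There were 1302 introns measured in both tables. Of these 15 were at least 10 points higher after WBP11 siRNA and 100 after WBP11 auxin, and 7 were in both lists, 46.7% of the siRNA list and 7% of the auxin list. The 7 were TRAPPC8, FCHO2, XRN1, MPND, ATXN7, RALGAPA1 and MPP3. The interval held 0 for FCHO2 after WBP11 siRNA, and for XRN1 and MPND after WBP11 auxin. MPND, an MPN-domain protein gene, had 17.7% after WBP11 siRNA against 2.16% in its control (1.97 to 41.7 for the difference). It had 17.6% after WBP11 auxin where the auxin control had 4.96%, on 12 and 23 spliced reads (-7.39 to 38.4). ATXN7, the ataxin-7 subunit of the SAGA complex, had 12.8% against 0.855% and 14.4% against 0.904% in the same order. RALGAPA1, a Ral GTPase activator subunit, had 13.7% against 1.03% and 21.7% against 0.496%. MPP3 had 18.7% against 4.88% and 19.2% against 6.04%.

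Of the 100 introns higher after WBP11 auxin, 75 also had a higher value after WBP11 siRNA, with a median difference of 1.85 points there. Of the 15 higher after WBP11 siRNA, 13 had a higher value after WBP11 auxin. Over all members of each comparison, 44.2% had a higher value after WBP11 siRNA and 81.4% after WBP11 auxin. At least 10 points lower were 16 of the 1302 introns after WBP11 siRNA and 7 after WBP11 auxin, with 0 in both. Counts this small among 1302 introns leave little room for overlap, so the 0 is not read as a difference between the depletions. Of those 16, 5 had a lower value after WBP11 auxin, where their median difference was 0.996 points. Over all 1302 introns the median difference was -0.28 points after WBP11 siRNA and 1.57 points after WBP11 auxin. Pearson's r between the differences was 0.33 and Spearman's rho 0.37 across these introns, which share their 4 libraries and are not independent.

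Some members with the highest control retention were at least 10 points lower, and PKN3 was at least 10 points higher after SNW1 siRNA. For several the interval of the difference held 0. In the control of the siRNA tables the highest included CMTM4, OGT, FASTKD1 and NLGN2, a neuroligin gene, the last with 23.1% after WBP11 siRNA and 39.1% in the control. TRPV3, an ion channel gene, had 42.8% after SNW1 siRNA and 39.0% in the control. PKN3 had 55.2% after SNW1 siRNA, 28.0% after WBP11 siRNA and 36.0% in the control. Its difference after SNW1 siRNA was 19.2 points, with an interval that held 0 (-7.43 to 42.6). CMTM4 was 5.86 points higher after SNW1 siRNA (0.01 to 10.6). PAXBP1 had 34.4% after WBP11 siRNA, 35.0% after SNW1 siRNA and 35.7% in the control, with intervals of the difference of -16.2 to 14.3 and -15.5 to 14.5 points. In the auxin control they were CMTM4, ZBTB48, PKN3, ANKRD29 and ZNF341, of which ANKRD29 had 47.4% after WBP11 auxin and 39.3% in the auxin control, with an interval of -13.3 to 28.2 points.

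**Figure D5:**
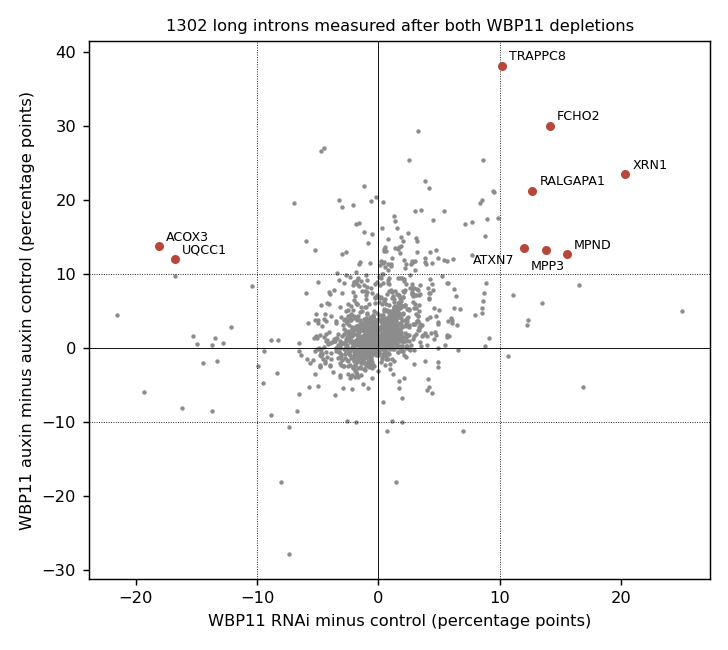
Each point is 1 of 1302 introns over 2000 bp, with the difference after WBP11 siRNA on the x axis and after WBP11 auxin on the y axis, in percentage points, and dotted lines at 10 points. The 7 introns higher in both and the 2 that were lower after siRNA and higher after auxin, UQCC1 and ACOX3, are named.

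The 1011 introns measured in all 3 tables allow levels to be read side by side in all 5 libraries. Their median retention was 1.83% after WBP11 siRNA, 3.81% after SNW1 siRNA and 1.89% in the control of both, and 4.32% after WBP11 auxin and 2.22% in the auxin control. In this set 12, 57 and 83 introns were higher and 13, 5 and 7 lower after WBP11 siRNA, SNW1 siRNA and WBP11 auxin. At least 20% retention was reached by 10 introns after WBP11 siRNA, 36 after SNW1 siRNA and 15 in the control, and by 47 after WBP11 auxin and 8 in the auxin control.

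Several of the longest introns with a difference of at least 10 points rested on few spliced reads. After WBP11 siRNA the longest was intron 1 of HTT, the huntingtin gene (11850 bp), with 12.4% against 1.40% in the control on 10 and 13 spliced reads, and an interval that held 0. TUT4, a terminal uridylyltransferase gene, had 15.1% and 1.67% at an intron of 7451 bp (3.67 to 26.9), and ANAPC7, a subunit of the anaphase-promoting complex, had 16.1% and 5.26% at its first intron of 7074 bp (1.25 to 21.3). After SNW1 siRNA the longest was the first intron of UCKL1 (9616 bp), a uridine-cytidine kinase-like gene, with 12.8% and 1.91% (1.12 to 23.9). After WBP11 auxin the longest was an intron of 15507 bp in the 5′ UTR of SLC45A3, with 12.9% and 2.18% on 9 and 20 spliced reads, and an interval that held 0. VWA8 (14909 bp) had 12.4% and 1.79%, and its interval also held 0.

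Members in gene lists were counted beside the 1.28%, 3.94% and 4.17% of all members that were higher after WBP11 siRNA, SNW1 siRNA and WBP11 auxin. The lists are too small for their counts to be told apart from those shares. In the list of PRPF19 complex and activated spliceosome genes, 0 of 5 members were higher after WBP11 siRNA, 0 of 9 after SNW1 siRNA and 1 of 10 after WBP11 auxin, with medians of -0.29, 1.33 and 1.46 points. The 1 was CDC40, a second-step splicing factor, with 24.7% after WBP11 auxin and 1.57% in the auxin control (14.5 to 31.2). Among U1 and U2 snRNP genes and partners 0 of 9, 0 of 12 and 1 of 6 were higher, the 1 being U2SURP, a U2-associated protein gene, with 12.3% after WBP11 auxin and 0.984% in the auxin control (7.45 to 15.6). Members in genes for SR proteins and CLK kinases had 0 of 6, 0 of 6 and 0 of 4 higher, with medians of -1.80, 3.29 and -0.12 points. Those in hnRNP genes had 0 of 1, 0 of 6 and 0 of 1.

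For the remaining lists the shares of all members that were higher are the same 1.28%, 3.94% and 4.17%. In centriole and centrosome genes 1 of 18 members was higher after WBP11 siRNA (TUBG2), 2 of 33 after SNW1 siRNA (TUBG2 and CEP70) and 3 of 42 after WBP11 auxin (OFD1 and CDK5RAP2 among them). In genes of recombination and the Fanconi pathway 0 of 19, 1 of 18 and 0 of 35 were higher, the 1 being the helicase gene WRN with 24.4% after SNW1 siRNA and 2.98% in the control (6.52 to 40.4). In genes of mRNA 3′ end processing 0 of 8, 1 of 14 and 0 of 11 were higher, the 1 being CPSF4, a subunit of the cleavage and polyadenylation specificity factor, with 21.5% after SNW1 siRNA and 11.3% in the control (-0.03 to 20.6, an interval that held 0). In histone lysine methylation genes 0 of 25, 1 of 39 and 0 of 52 were higher. The 1 was the demethylase gene KDM7A, with 17.7% after SNW1 siRNA and 5.92% in the control, and the H3 methyltransferase gene DOT1L had 10.4% after WBP11 siRNA and 20.9% in the control (-24.4 to 1.26, which also held 0). In cell adhesion and laminin genes 0 of 10, 0 of 12 and 1 of 19 were higher, with a median of 5.16 points after WBP11 auxin.

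Annotation inside the introns and the bases at their ends were described for the same groups. An exon of the gene itself lay inside 43.8% of the 32 introns higher after WBP11 siRNA, 62.9% of the 35 lower and 51.3% of all 2500 members. The shares were 55.4% of those higher after SNW1 siRNA and 47.3% of all, and 50.5% of those higher after WBP11 auxin and 43.2% of all. Transcript starts lay inside 34.9% of introns higher after WBP11 auxin and 23.0% of all members, and inside 34.3% and 25.6% after SNW1 siRNA. After WBP11 siRNA the order was the other way, with 18.8% of the 32 higher, 34.3% of the 35 lower and 29.1% of all members. IRFinder leaves annotated exon bases out of the intron depth, but reads of unannotated or extended exon forms can still count as retention, and their part in these values was not tested.

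The last base of the upstream exon is usually G, as in the OGT, ARGLU1 and RNF43 sites above. It was G in 15 of the 32 introns higher after WBP11 siRNA (46.9%), in 30 of the 35 lower (85.7%) and in 71.9% of all 2500 members. Among introns of any length in that table it was G in 70.6% of the 1457 higher, 86.0% of the 272 lower and 75.8% of all 16068. The share among the lower long introns was thus close to that among lower introns of any length. XRN1 and TUBG2 above show both forms, with CAT before the XRN1 junction and GAG before the TUBG2 site. After SNW1 siRNA the last exon base was G in 80.1% of the 166 higher and 77.9% of all members, and after WBP11 auxin in 68.8% of the 186 higher and 74.8% of all members. Among introns of any length that were higher it was G in 81.9% after SNW1 siRNA and 77.8% after WBP11 auxin. The median G and C content of the last 50 bases of the upstream exon was 55% for introns higher after WBP11 siRNA, 58% after SNW1 siRNA and 50% after WBP11 auxin, against 50%, 52% and 48% for all members. For introns of any length it was 58%, 60% and 58% among the higher and 56%, 56% and 54% among all tested. These are descriptions of small groups and were not tested.

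The length limit itself cut through a continuous range. After WBP11 auxin, the introns just inside it were those of FCHSD2, KIF14 and CPSF4 (each 2002 bp), with 10.3%, 5.80% and 18.4% in the WBP11 auxin library and 3.50%, 2.35% and 9.46% in the auxin control. Just outside were TKFC, ADNP and PIKFYVE (each 2000 bp), with 3.11%, 2.47% and 1.09% after WBP11 auxin and 3.87%, 2.95% and 0.732% in the auxin control. In the siRNA tables, DGKD just inside (2002 bp) had 0.282% after WBP11 siRNA and 1.23% in the control, and ELAC2 just outside (1999 bp) had 4.99% after SNW1 siRNA and 0.648% in the control.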

How the data were processed

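The authors compared 5 libraries in 3 tables with IRFinder, in its directional mode on STAR alignments to hg38, per the file headers. The submitters' processing notes also name RSEM and bedtools, with no version stated in the labels or headers. The retention ratio and the covered share of an intron are deposited as a fraction each, depth over the intron was deposited as coverage signal, and spliced reads were deposited as a count per intron. None was scaled between libraries, and the deposited p-values were not used. From the values, the ratio equals depth over depth plus a whole number of spliced reads (tolerance 0.05 reads), and the covered share replaces a depth below 1.

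Each table was read as deposited, with the depleted library minus its control as the difference. A difference of at least 10 points was called, at a depth minimum of 10. Wilson intervals for a ratio and Newcombe intervals for a difference (95%) take depth plus spliced reads as n and cover counting error only. Depth is a coverage and not a count of reads, so these intervals are approximate. Where depth was below 1, the ratio used the covered share while n used the depth. No test was made, since each group is 1 library. The code for calls was run on simulated counts with planted differences well above the call limit. That run covers neither the spread between libraries nor the use of a coverage as a count, so it does not measure the error of the calls. All 34560 introns matched GENCODE 29, which gave positions, and coordinates count from 1. The text uses 9 gene lists. The introns named were, per comparison, the 10 largest positive and 5 largest negative differences, the 3 longest with a positive call, those with the highest control values, those called in several comparisons, those nearest the length limit, and the largest per gene list. ATXN7, RALGAPA1, MPP3, UQCC1, C1orf52 and CDK5RAP2 were named after their values were seen. The members and lists were chosen with earlier results of these data known. The alternatives covered the size and rule of a call, the depth minimum, the length limit, clean and warned introns, exact spliced reads, 1 intron per gene and centring, and 4 were added after seeing the data. Python 3.11.15, pandas 2.3.3, numpy 2.4.6, scipy 1.17.1 and matplotlib 3.10.9 were used. Some introns that the rule for named introns selects are not reported here.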

Additional observations from a re-analysis of the deposited data

Results flagged for a closer look

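The WBP11 depletions gave opposite medians over the introns longer than 2000 bp, -0.40 points after WBP11 siRNA and 1.32 points after WBP11 auxin. These medians are over different sets of 2500 and 4456 introns. Over the 1302 introns measured in both tables they were -0.28 and 1.57 points. Centred on the median of all introns tested they had the same sign, -1.16 and -0.13 points, and without members that hold an exon of their own gene the WBP11 siRNA median was 0.00131 points. The difference between them was not tested, since each depletion is 1 library. In UQCC1, a factor of respiratory complex III assembly, the difference was -16.8 points after WBP11 siRNA (3.34% against 20.1% in the control) and 12.003 points after WBP11 auxin (23.2%, with 11.2% in the auxin control). In ACOX3 it was -18.1 points after WBP11 siRNA (4.71% against 22.8%) and 13.7 points after WBP11 auxin (24.2% against 10.5%), and both intervals of ACOX3 held 0. Neither pair was tested.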

How the results depend on the processing

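The 3 values per setting are for WBP11 siRNA, SNW1 siRNA and WBP11 auxin. As reported, 1.28%, 3.94% and 4.17% of members were higher, 1.40%, 0.261% and 0.247% lower, and the median differences were -0.40, 1.52 and 1.32 points.

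The medians kept their sign except in 3 cases. Centred on the median of all introns tested they were -1.16, -1.11 and -0.13 points, with 2.28% (SNW1 siRNA) and 3.16% (WBP11 auxin) higher and 0.546% (SNW1 siRNA) lower. Without members that hold an exon of their own gene the WBP11 siRNA median was 0.00131 points, and 3.33% were higher after SNW1 siRNA.

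The shares moved with the rule for a call. At 20 points 0.160%, 0.617% and 0.673% were higher and 0.0800%, 0.0475% and 0.0449% lower. At 5 points 4.80%, 14.3% and 14.0% were higher and 4.76%, 0.902% and 1.21% lower. With an interval that left out 0 as well, 0.680%, 2.42% and 2.54% were higher and 0.680%, 0.0949% and 0.0898% lower. A 2-fold change after adding 1 point, a rule added after seeing the data, gave 13.4%, 41.2% and 36.0% higher and 15.1%, 1.35% and 2.56% lower.

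Depth limits these values. At a depth minimum of 30 the shares higher were 0.796%, 2.52% and 3.16%, the share lower after WBP11 siRNA was 0.796%, and the medians after SNW1 siRNA and WBP11 auxin were 1.39 and 1.22 points. At a minimum of 100 the shares higher were 0.425%, 1.95% and 2.80%, those lower after WBP11 siRNA and WBP11 auxin 0.956% and 0.0718%, and the SNW1 siRNA and WBP11 auxin medians 1.14 and 1.04 points. With no minimum 4.66% were higher after SNW1 siRNA and 0.505% lower after WBP11 auxin. Without warned introns the shares higher were 0.582%, 2.29% and 2.85%, the share lower after WBP11 auxin 0.0749%, and the SNW1 siRNA and WBP11 auxin medians 1.44 and 1.20 points.

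For introns over 1000 bp the shares higher were 2.41%, 6.06% and 5.31%, the share lower after WBP11 auxin 0.535%, and the medians -0.19, 1.68 and 1.23 points. For those over 5000 bp the shares higher were 0.719%, 2.36% and 2.43%, those lower after WBP11 siRNA and WBP11 auxin 0.899% and 0.0810%, and the SNW1 siRNA and WBP11 auxin medians 1.46 and 1.41 points. With exactly spliced reads 4.88% and 5.94% were higher after SNW1 siRNA and WBP11 auxin, with medians of 1.59 and 1.45 points. With depth in every ratio, also where it was below 1, 5.12% were higher after WBP11 auxin and the SNW1 siRNA and WBP11 auxin medians were 1.61 and 1.51 points. Among the 1011 introns measured in every table, 5.64% and 8.21% were higher and 0.495% and 0.692% lower after SNW1 siRNA and WBP11 auxin, with medians of 1.64 and 1.57 points. With 1 intron per gene the WBP11 auxin median was 1.21 points, and counting introns that are not clean moved no value beyond its interval. The choices of depth in every ratio, of introns without own-gene exons and of introns measured in every table were made after seeing the data. The cause of these shifts was not tested.

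No paired analysis was possible because each group is 1 library and the labels carry no replicate numbers. Leaving out a library was not possible either.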
